A study of Mus musculus with 3 samples.

Results

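Interferon-stimulated genes are the genes whose transcripts cells make when interferon reaches them, and 31 of them were followed here in mouse cells labelled as embryonic stem cells. A gene was taken as measured where the accession of a probe is a transcript of the listed gene, which held for 29 of the 31 among 20659 named genes on the array. Mx1 and Mx2, which encode antiviral GTPases, had no such probe and were not analysed here. The groups were wildtype cells, LIFR KO cells and gp130 KO cells (KO, knockout), all grown under what the submitters call standard conditions, with no treatment named in the labels. LIFR is the receptor for the cytokine LIF, and gp130, encoded by Il6st, is the receptor chain through which LIFR and the IL-6 family receptors signal. Each genotype had 1 single-colour Agilent array, so there was no replicate, every difference is one between 2 arrays, and no test or p-value was possible. The labels do not give the clone, the knockout method or the part of each gene removed.

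Type I interferons act through the receptor chains IFNAR1 and IFNAR2 and the kinases JAK1 and TYK2, which activate STAT proteins. STAT2 and IRF9 belong to the complex ISGF3, which binds the interferon-stimulated response element (ISRE), while interferon gamma acts through STAT dimers on the gamma-activated sequence (GAS). Cytokines of the IL-6 family, LIF among them, signal through gp130, JAK kinases and chiefly STAT3. Embryonic stem cells are known for a weak response to interferon.

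The 2 regulatory motifs were looked up in the promoters of the measured genes, since ISGF3 and STAT dimers act through them. A promoter window ran from 250 bases before to 50 bases after each annotated start in RefSeq (assembly GRCm38.p6), and 25 of the 29 genes had such a window. The ISRE core was searched as a pair of GAAA repeats with any 2 bases between them and the GAS core as TTC and GAA with any 3 bases between them, on both strands, with overlapping matches counted separately. The 250 bases before the start are shown for 6 genes that carry the array results, 5′ to 3′ on the strand of the gene, with matches in capitals. Rsad2 and Irf1 had the largest ratios on the LIFR knockout array, Stat2, Isg15 and Oasl2 were higher on both knockout arrays, and Ifit1 was nearly level in LIFR knockout and higher in gp130 knockout.
Rsad2, chr12:26456453-26456702, minus strand: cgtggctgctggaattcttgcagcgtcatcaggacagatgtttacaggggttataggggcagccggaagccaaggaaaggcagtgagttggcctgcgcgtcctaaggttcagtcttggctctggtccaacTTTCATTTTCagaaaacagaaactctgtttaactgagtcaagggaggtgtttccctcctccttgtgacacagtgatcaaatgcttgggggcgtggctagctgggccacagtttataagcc
Irf1, chr11:53769764-53770013, plus strand: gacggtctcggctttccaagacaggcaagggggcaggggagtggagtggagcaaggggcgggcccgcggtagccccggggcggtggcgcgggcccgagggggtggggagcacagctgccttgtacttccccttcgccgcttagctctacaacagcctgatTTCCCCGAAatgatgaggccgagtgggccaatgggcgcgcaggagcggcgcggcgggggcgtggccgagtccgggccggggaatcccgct
Stat2, chr10:128270248-128270497, plus strand: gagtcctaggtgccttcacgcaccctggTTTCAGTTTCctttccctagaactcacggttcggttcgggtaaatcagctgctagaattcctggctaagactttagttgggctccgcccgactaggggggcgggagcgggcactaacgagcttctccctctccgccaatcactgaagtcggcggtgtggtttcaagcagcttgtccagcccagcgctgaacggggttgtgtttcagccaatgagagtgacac
Isg15, chr4:156200819-156201068, minus strand: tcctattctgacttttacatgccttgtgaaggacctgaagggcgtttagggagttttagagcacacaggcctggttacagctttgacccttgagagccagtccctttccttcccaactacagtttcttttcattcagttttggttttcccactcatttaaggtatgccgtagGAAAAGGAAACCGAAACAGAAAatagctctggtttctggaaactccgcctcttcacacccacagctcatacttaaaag
Oasl2, chr5:114896684-114896933, plus strand: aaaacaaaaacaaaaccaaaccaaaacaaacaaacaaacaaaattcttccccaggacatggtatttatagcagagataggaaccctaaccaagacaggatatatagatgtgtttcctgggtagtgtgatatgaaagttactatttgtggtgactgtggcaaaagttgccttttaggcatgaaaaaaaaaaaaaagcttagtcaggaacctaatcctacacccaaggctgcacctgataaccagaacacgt
Ifit1, chr19:34640639-34640888, plus strand: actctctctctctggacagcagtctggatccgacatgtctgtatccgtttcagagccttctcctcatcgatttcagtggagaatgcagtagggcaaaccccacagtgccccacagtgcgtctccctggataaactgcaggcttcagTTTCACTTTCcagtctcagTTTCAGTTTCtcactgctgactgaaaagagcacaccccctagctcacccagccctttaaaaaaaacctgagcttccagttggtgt

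The upstream stretches differ in what they hold. Rsad2 has 1 ISRE core, 120 bases upstream of the start and on the opposite strand, and Stat2 has 1 at 222 bases upstream, also on the opposite strand. In Isg15, 3 overlapping ISRE cores run from 78 bases upstream, and in Ifit1 a pair of separate cores begins at 104 and 85 bases upstream. Irf1 has no ISRE core and 1 GAS core, 90 bases upstream, and its alternative start has neither motif. Oasl2 and its neighbour Oasl1 have neither motif in the window.

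An ISRE core was found in 13 of the 25 genes with a window (52%), against 1079 of 27025 genes with a window in the whole table (3.99%). A GAS core was found in 7 of the 25 (28%), against 9.55% of all genes. These are matches to letters, and no binding was measured. The median log2 ratio of LIFR knockout over wildtype was 0.11 over the 13 genes with an ISRE core and 0.07 over the 11 measured genes without. For gp130 knockout over wildtype the medians were 0.06 and 0.04, and for gp130 over LIFR knockout 0.08 and -0.07. Over the 7 genes with a GAS core and the 17 without, they were 0.07 and 0.11, 0.04 and 0.06, and -0.10 and 0.08 in the same order of comparisons. Genes with and without the core overlapped over most of their range, with the largest ratio among those without belonging to Irf1 (1.20) and among those with to Rsad2 (1.48).

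**Figure D1:**
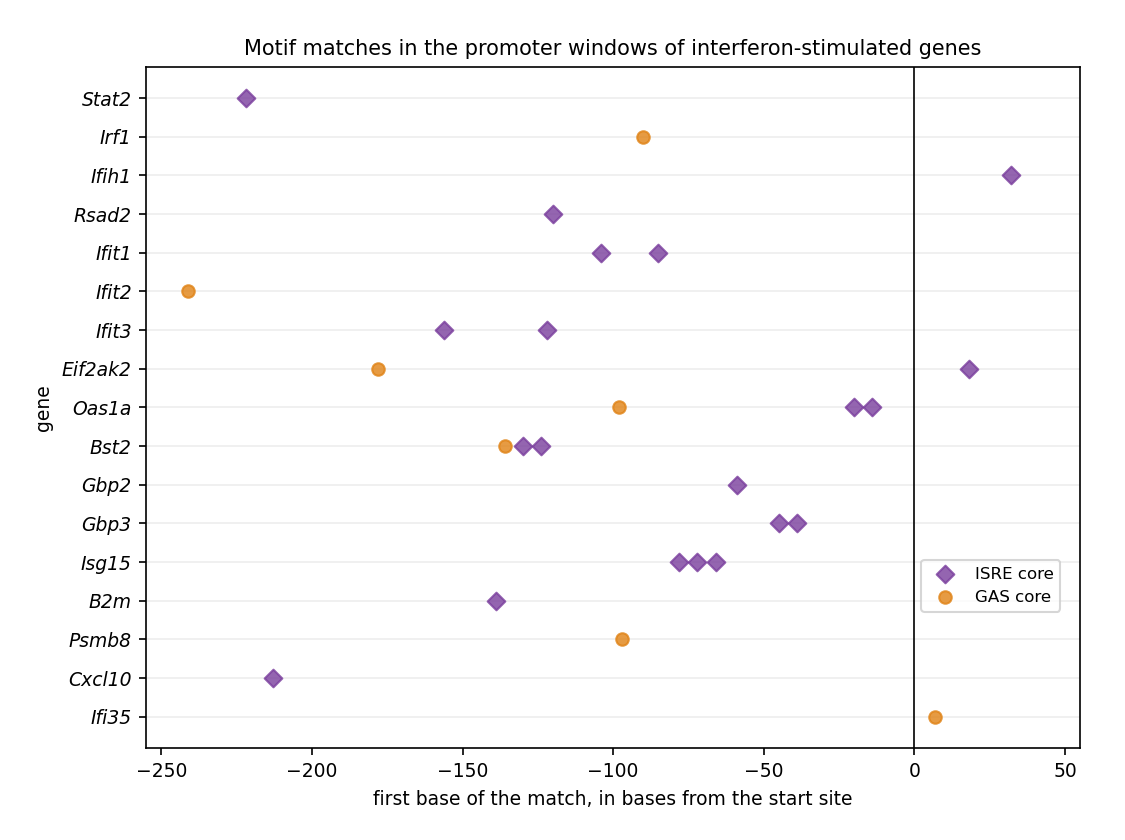
Positions of ISRE core matches (diamonds) and GAS core matches (circles) in the promoter windows of the 17 genes with a match; the x axis gives the first base of a match in bases from the start site (vertical line) and the y axis the gene. Isg15 holds 3 overlapping ISRE cores beginning 78 bases upstream, and the ISRE cores of Ifih1 and Eif2ak2 and the GAS core of Ifi35 lie after the start.

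Nearly all of the genes gave a signal in these cells. The brightest probe was well above background on all 3 arrays for 28 of 29 (96.6%), against 13121 of 20659 named genes (63.5%). The exception was Irf7, the transcription factor that amplifies interferon production, with processed signals of 13.3, 10.8 and 9.57. Values given in threes are in the order wildtype, LIFR knockout, gp130 knockout, and paired log2 ratios are those of LIFR knockout and then gp130 knockout over wildtype. None of the Irf7 signals reached the level the scanner software calls well above background, so Irf7 has no ratio. The other signals ran from 16.6 to 31337 on the wildtype array. Signals of different probes were not compared with each other.

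**Figure D2:**
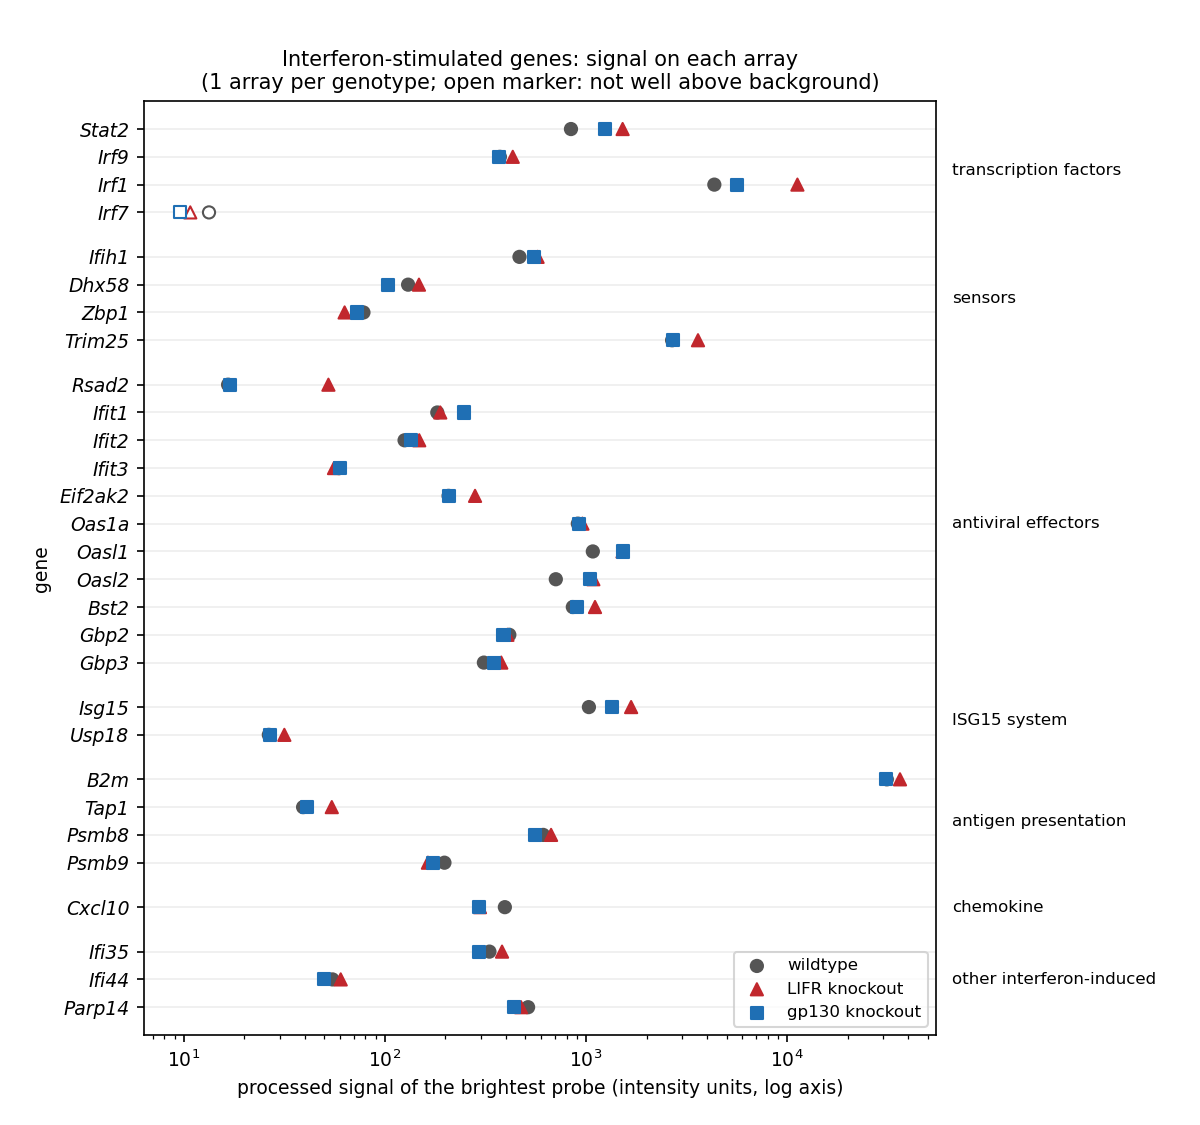
Processed signal of the brightest probe of each measured interferon-stimulated gene (x axis, intensity units, log scale) on 3 arrays, wildtype (circle), LIFR knockout (triangle) and gp130 knockout (square), grouped by role along the y axis. The markers of most genes lie close together; those of Rsad2 and Irf1 are farthest apart, with the LIFR knockout array highest, and Irf7 has open markers on all 3 arrays because it was not well above background.

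The LIFR knockout array stood apart in quality. It had 58.3% of 39429 probes well above background, against 64.4% and 65.5% on the wildtype and gp130 knockout arrays, and 222 outlier spots, against 97 and 138. Its lowest signal of a probe called above background, averaged over the spots of the probe, was 16.7, against 6.94 and 9.66. The lowest single spot so called was 16.7, against 10.5 and 9.66. At 909 of its spots the local background exceeded 1.5 times the array's median, against 103 and 145 spots on the others. Such spots are called stray-light spots here as a label only, and the source of the background was not tested. No probe of the 29 genes was among them, and the part of these quality features in the ratios was not tested beyond the alternatives given. Ratios were taken after dividing by each array's 75th percentile of signal, 664, 750 and 652. Lifr was 1.31-fold lower on the LIFR knockout array (34.9 against 30.0, with the sign turning to 1.57 on the log2 scale under a normexp background correction) and Il6st 1.08-fold lower on the gp130 knockout array (329 against 299), so the transcripts of the targeted genes did not mark the arrays, and knockout array below means the array so labelled. Whether these probes lie in the removed part is not given. Of 12 pluripotent stem cell markers 7 stood well above background on each of the 3 arrays, and Sox2, Zfp42, Dppa3, Fgf4 and Tcl1 were so on none. Among the 7, Pou5f1 was dim, with 31.2, 22.7 and 20.3. The 12 markers summed to 2543, 2508 and 2572 without scaling. Once scaled, 2 of the 7 lay above wildtype and 5 below in LIFR knockout (median log2 ratio -0.41). Nanog (-0.72), Pou5f1 (-0.63) and Lin28a (-0.62) were at least 1.5-fold lower there. In gp130 knockout 3 were above and 4 below (median -0.01), and only Pou5f1 (-0.59) was at least 1.5-fold lower. All 10 epithelial markers, 5 of 10 fibroblast markers and 7 of 9 leukocyte markers on the array were detected on all 3. The summed signal was 68459, 84405 and 71344 over the epithelial list, 73656, 88673 and 84234 over the fibroblast list and 1945, 1680 and 1817 over the leukocyte list, where Lyz2 was detected on none. Nearly all of the fibroblast sum came from Vim, with 73043, 87779 and 83486. The sums add signals of different probes without scaling between arrays, so they do not measure the share of a cell type. Col1a1, a fibroblast collagen gene, gave 70.4, 257 and 92.9 and was 3.23-fold higher than wildtype on the LIFR knockout array, where Rsad2 and Irf1 were also higher. Of 8 fibroblast genes compared on that array, bounds included, 3 lay above wildtype and 3 below, with a median log2 ratio of 0. The epithelial Cldn4 was 2.20-fold higher there, with a spot in stray light, and on the gp130 knockout array the fibroblast Dcn was 2.08-fold and the leukocyte Laptm5 at least 2.003-fold higher, both under 2-fold with normexp. The Laptm5 bound is 1.32-fold with the lowest single spot, 10.5, as the wildtype floor. Of the 10 epithelial genes 7 lay above wildtype and 3 below on the LIFR knockout array. Of 7 leukocyte genes compared there, 1 lay above and 6 below (median log2 ratio -0.31), and Cd14 was 1.82-fold lower. On the gp130 knockout array 7 fibroblast genes lay above wildtype and 1 below, and 3 leukocyte genes lay above and 5 below. The part of other cell types in the ratios was not tested. In bulk RNA, fewer cells of a type and less RNA per cell cannot be told apart.

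On the LIFR knockout array most interferon-stimulated genes lay close to their wildtype level, with 23 of 28 log2 ratios between -0.5 and 0.5. Rsad2 and Irf1 were at least 2-fold higher and none was at least 2-fold lower. That is 7.14% of the 28, against 2.87% of 14554 genes compared, and 0% lower against 1.62%. The 14554 include bounds. Among the 13139 genes well above background on both arrays, as the members were, 253 were at least 2-fold higher and 177 lower. At 1.5-fold, 3 were higher (10.7%, against 6.42% of all genes), Stat2 being added, and Cxcl10 was lower (3.57%, against 7.52%). Cxcl10 lies at the threshold, with 1.501-fold. With 28 genes a share rests on a handful of them, and the same holds for the shares given for the other comparisons. The median log2 ratio was 0.06, against -0.03 over all genes compared, whose middle 50% ran from -0.26 to 0.15.

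On the gp130 knockout array no interferon-stimulated gene reached 2-fold in either direction, where 1.61% of 14917 genes compared were higher and 0.784% lower. The 14917 include bounds. Among the 14093 genes well above background on both arrays, as the members were, 78 were higher and 66 lower. At 1.5-fold Oasl2 and Stat2 were higher (7.14%, against 4.59% of all genes) and none was lower (against 3.11%). Both lie at the threshold, with 1.51-fold and 1.501-fold. The median log2 ratio was 0.04, against 0.03 over all genes, and 25 of 28 ratios lay between -0.5 and 0.5. The ratios of both knockouts share the wildtype array, so a deviation of that array enters both.

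Between the knockouts, Rsad2 was at least 2-fold lower on the gp130 array than on the LIFR array (3.57%, against 2.05% of 14768 genes) and none was higher (against 1.29%). Among the 13170 genes well above background on both arrays, 124 were higher and 184 lower. At 1.5-fold Ifit1 was higher (3.57%, against 5.48%) and Rsad2 and Irf1 were lower (7.14%, against 4.64%). The median was -0.02, against 0.05 over all genes.

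**Figure D3:**
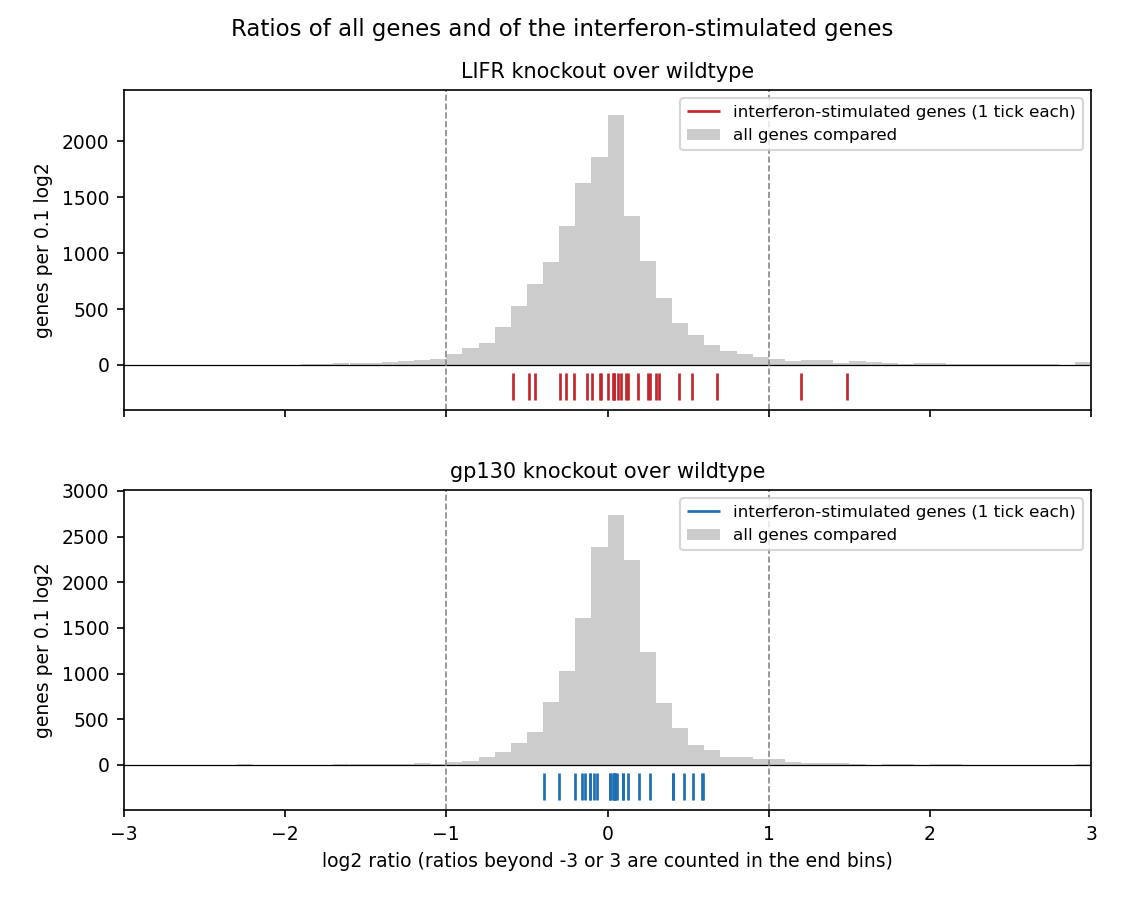
Histograms of the log2 ratio over all genes compared (grey bars, genes per 0.1 log2 units) for LIFR knockout over wildtype (top, 14554 genes) and gp130 knockout over wildtype (bottom, 14917 genes), with a coloured tick for each of 28 interferon-stimulated genes; dashed lines mark 2-fold. Most ticks lie under the bulk of all genes, and the 2 ticks beyond the upper dashed line in the top panel are Irf1 (1.20) and Rsad2 (1.48).

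How precise a ratio of 2 arrays is can be judged from the arrays alone, without the spread between cultures. Repeated spots of the same probe gave a 95% half-width of 0.13 log2 units (1.09-fold) for LIFR knockout over wildtype where the signal was over 100, and of 0.41 (1.32-fold) at signals of 10 to 100. The scanner software's own error, stated as 1 error and not as a 95% half-width, was 0.20 log2 units for most of the genes. For bright probes even 1 such error is wider than the half-width from repeated spots. Beyond 2 such errors lay 9 of 28 genes for LIFR knockout over wildtype, 4 for gp130 knockout over wildtype and 4 for gp130 over LIFR knockout. Where both arrays gave a signal well above background, 21.6%, 9.99% and 15.3% of all genes lay beyond them.

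The LIFR knockout ratios of dim genes moved most with the background correction. With normexp, an alternative that models the background and adds an offset of 50, fitted to all spots, 7 genes were at least 2-fold higher on the LIFR knockout array. They were Rsad2 (log2 ratio 1.99), Usp18 (1.73), Tap1 (1.62), Ifi44 (1.39), Ifit3 (1.36), Zbp1 (1.08) and Dhx58 (1.01), while Irf1 fell short at 0.68. Under that fit 3302 of all genes were higher and 94 lower. With the stray-light spots left out of the fit, the 6 besides Rsad2 lay between -0.33 (Zbp1) and 0.07 (Tap1), Rsad2 was at 0.50 and Irf1 at 1.19.

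The 3 transcription factors with a ratio lay at or above their wildtype level on both knockout arrays. Stat2, the STAT partner of IRF9 in ISGF3, had signals of 842, 1521 and 1240. The wildtype array was the lowest and the knockouts lay close together, at log2 ratios of 0.68 (scanner error 0.20) and 0.59 (0.20). Irf9, its DNA-binding partner, was level at 373, 432 and 371, with log2 ratios of 0.04 and 0.02. Irf1, an early response factor to interferon gamma, gave 4348, 11256 and 5647. The LIFR knockout array stood above both others, 2.29-fold over wildtype and 1.73-fold over gp130 knockout, and the gp130 knockout array was 1.32-fold over wildtype. This rests on the probe for the main Irf1 transcript. A dim probe for another Irf1 transcript gave 13.0, 14.1 and 9.44, well above background on the wildtype array alone, and with both probes averaged the LIFR knockout log2 ratio was 0.57 and that of gp130 knockout was -0.01.

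None of the 4 genes grouped as sensors of viral nucleic acid, with the ligase gene Trim25 among them, reached 1.5-fold. Zbp1 on the LIFR knockout array was farthest from wildtype. Ifih1, which encodes the RNA sensor MDA5, gave 467, 574 and 549, with log2 ratios of 0.12 and 0.26 over wildtype. Dhx58, which encodes the related helicase LGP2, gave 130, 148 and 104, level in LIFR knockout and at -0.30 in gp130 knockout. Zbp1, a sensor of left-handed nucleic acid, gave 78.2, 63.0 and 72.3, with log2 ratios of -0.49 (scanner error 0.22) and -0.09. For a signal in this range the repeated spots alone allow 0.41 log2 units, and the LIFR knockout value of Zbp1 turned to 1.08 under normexp fitted to all spots. A dimmer Zbp1 probe gave 14.5, 15.2 and 16.6, not well above background on the LIFR knockout array. With both probes averaged the sign of the gp130 knockout ratio of Zbp1 turned. Trim25, the ubiquitin ligase that acts on RIG-I, gave 2680, 3606 and 2698, at 0.25 and 0.04. Its LIFR knockout ratio turned to -0.16 under normexp fitted to all spots.

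Among 11 antiviral effectors Rsad2 stood apart on the LIFR knockout array. Rsad2 encodes viperin, a radical SAM enzyme that makes a chain-terminating nucleotide, and gave 16.6, 52.3 and 17.0. Wildtype and gp130 knockout were alike and near the lowest signals called above background, and LIFR knockout was 2.79-fold higher than wildtype, a log2 ratio of 1.48 (scanner error 0.29). The size moved with the background correction. With normexp fitted without the stray-light spots the log2 ratio was 0.50, under 2-fold, and that of gp130 over LIFR knockout was -0.48 in place of -1.42.

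The Ifit genes, whose proteins bind viral RNA, had smaller LIFR knockout ratios than Rsad2. Ifit1 gave 182, 188 and 248, so the gp130 knockout array was the highest, with a log2 ratio of 0.47 (scanner error 0.21) over wildtype and 0.60 over LIFR knockout, the latter turning to -0.34 under normexp fitted to all spots and 0.48 without stray light. Ifit2 gave 125, 148 and 134, within 0.13 log2 units of wildtype on both knockout arrays. Ifit3, its neighbour on chromosome 19, gave 59.1, 55.8 and 59.9, at -0.26 and 0.05. The sign of the small LIFR knockout ratio of Ifit1, -0.13, turned with scaling by the array median. Under normexp fitted to all spots the LIFR knockout ratios of Ifit1, Ifit2 and Ifit3 were 0.74, 0.99 and 1.36, and without stray light they were -0.08, 0.04 and -0.12.

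The OAS-like genes were higher on both knockout arrays. Oasl2, a relative of the 2′-5′ oligoadenylate synthetases, gave 708, 1088 and 1046, at log2 ratios of 0.45 and 0.59 over wildtype. Oasl1, its neighbour on chromosome 5, gave 1081, 1520 and 1531, at 0.32 and 0.53. In both the wildtype array was the lowest. Oas1a, an oligoadenylate synthetase that activates RNase L, did not share this and gave 911, 960 and 922, at -0.10 and 0.04, with the first sign turning under the median scaling. The scanner error of each of these ratios was 0.20.

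The remaining effectors lay within 0.3 log2 units of wildtype. Eif2ak2, which encodes the kinase PKR, gave 207, 281 and 209, at 0.26 and 0.04. Bst2, which encodes tetherin, gave 860, 1109 and 902, at 0.19 and 0.10. The guanylate-binding protein genes Gbp2 and Gbp3, typical targets of interferon gamma, went different ways on the LIFR knockout array, at -0.21 and 0.11, and both differences are near or under 1 scanner error. On the gp130 knockout array they were at -0.07 and 0.19.

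Isg15, a ubiquitin-like protein that is attached to other proteins, was higher on both knockout arrays at its brighter probe. It gave 1034, 1676 and 1345, log2 ratios of 0.52 and 0.41 (scanner error 0.20 each). Its other probe gave 75.2, 113 and 80.6, at 0.41 and 0.13. The probes lay closer together for LIFR knockout than for gp130 knockout. At signals of 10 to 100 repeated spots alone allow 0.45 log2 units for gp130 knockout over wildtype, so a difference between the probes is not shown. Usp18, the protease that removes ISG15 and restrains the receptor, was dim and level at 26.5, 31.6 and 26.7, with 0.08 and 0.04.

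The antigen presentation genes gave no common direction. B2m, the light chain of MHC class I, was bright and level at 31337, 36444 and 31041, with log2 ratios of 0.04 and 0.01. Under normexp fitted to all spots its LIFR knockout ratio turned to -0.48, and gp130 over LIFR knockout was 0.53. Without stray light its LIFR knockout ratio was 0.06. Tap1, Psmb8 and Psmb9, which encode a peptide transporter subunit and immunoproteasome subunits, are neighbours on chromosome 17, and the divergent promoter windows of Psmb9 and Tap1 share 275 bases. Tap1 gave 39.2, 54.4 and 41.1, and Psmb9, read from the other strand of that shared stretch, gave 198, 164 and 174. On the LIFR knockout array the pair thus lay on opposite sides of wildtype, Tap1 at 0.30 and Psmb9 at -0.45 (scanner error 0.21), and both were nearer to wildtype on the gp130 knockout array, at 0.10 and -0.16. Under normexp fitted to all spots Psmb9 turned to 0.69 and Tap1 was 1.62, and without stray light they were -0.22 and 0.07. Psmb8 gave 613, 670 and 556, at -0.04 and -0.11.

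Tap1, alone of the 29 genes, was measured by repeated spots, 10 on each array, which shows the spread within an array directly. The spots ran from 36.6 to 42.6 on the wildtype array (SD 2.13, n = 10 spots), from 47.3 to 61.7 on the LIFR knockout array (SD 4.58, n = 10 spots) and from 36.7 to 46.7 on the gp130 knockout array (SD 2.86, n = 9 spots, 1 outlier spot left out). Divided by each array's 75th percentile, the highest wildtype spot was 0.0641 and the highest gp130 knockout spot 0.0716, both above the lowest LIFR knockout spot at 0.0631, so the arrays overlapped. The mean difference was 1.23-fold over wildtype. Spots are no replicates of a culture.

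Cxcl10, a chemokine that attracts T cells, was lower on both knockout arrays. It gave 395, 297 and 294, 1.501-fold and 1.32-fold lower than wildtype (log2 ratios -0.59 and -0.40, scanner error 0.20 each). Across the alternatives the LIFR knockout log2 ratio of Cxcl10 ran from -0.59 to -0.03 and the gp130 knockout one from -0.41 to -0.31. Of the other induced genes, Ifi35 gave 331, 382 and 294, Ifi44 54.8, 60.3 and 49.9, and Parp14, an ADP-ribosyltransferase, 515, 475 and 440. Parp14 was the lowest of these at -0.29 and -0.20, and the Ifi35 and Ifi44 ratios were all under 1 scanner error. The LIFR knockout ratio of Parp14 turned to 0.05 under normexp fitted to all spots.

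**Figure D4:**
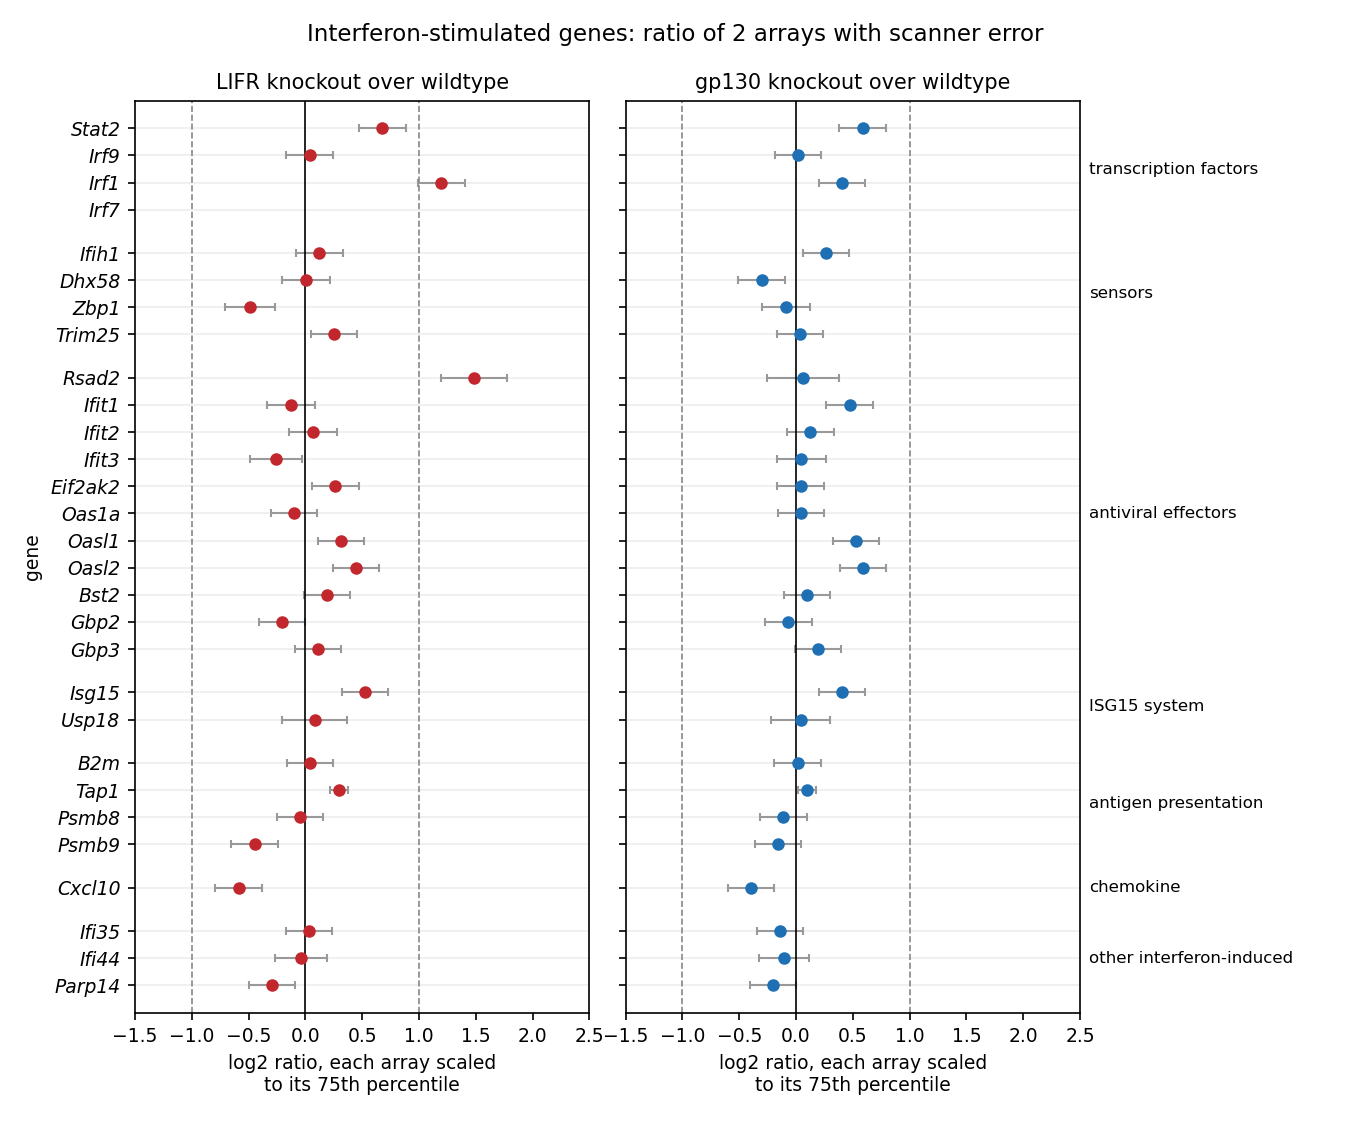
Log2 ratio of LIFR knockout over wildtype (left) and gp130 knockout over wildtype (right) for each interferon-stimulated gene, grouped by role, after scaling to the 75th percentile; bars show 1 scanner error of the ratio of 2 arrays, dashed lines 2-fold, and Irf7 has no ratio. Rsad2 (1.48) and Irf1 (1.20) pass the dashed line on the left and none does on the right, where Oasl2 and Stat2 (both 0.59) are highest.

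Most of the pathway upstream of these genes was detected. Of 29 ligand, receptor, kinase and regulator genes listed, 26 stood well above background on each of the 3 arrays, while the interferon genes Ifnb1 and Ifne, which encode ligands, were so on none.

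The receptor chains went different ways. Ifnlr1, the chain for interferon lambda, gave 208, 379 and 236, at log2 ratios of 0.69 and 0.21, the largest of the receptor genes on the LIFR knockout array. Ifnar1 gave 265, 412 and 304, at log2 ratios of 0.46 and 0.22, while Ifnar2 gave 991, 947 and 892, at -0.24 and -0.12. The interferon gamma receptor genes Ifngr1 and Ifngr2 were at 0.12 and -0.25 in LIFR knockout and 0.16 and -0.32 in gp130 knockout. Of the kinases, Jak1 was at 0.01 and 0.05, and Tyk2 at 0.03 and -0.09. Tyk2 was dim, with 93.6, 108 and 86.3, and its LIFR knockout ratio ran from 0.03 to 1.07 across the alternatives. That of Jak1 ran from -0.35 to 0.18. The transcription factors Irf3 and Irf2 were at -0.21 and -0.30 in LIFR knockout and -0.05 and 0.02 in gp130 knockout.

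At 2-fold, 1 of 26 pathway genes was higher and 1 lower in LIFR knockout, and none in gp130 knockout. The higher was Socs3, a feedback inhibitor of gp130 signalling that STAT3 induces, with 2256, 6572 and 1820. It was 2.58-fold higher on LIFR knockout than on wildtype, or 1.84-fold under normexp fitted to all spots, and its gp130 knockout log2 ratio was -0.28. Socs1, the related inhibitor of interferon signalling, gave 706, 561 and 580 and lay at -0.51 and -0.26. The lower was Ikbke, a kinase that activates IRF3, with 299, 167 and 153, 2.02-fold lower on LIFR knockout and 1.92-fold lower on gp130 knockout. The Ikbke value is at the threshold and fell under it with the stray-light spots left out, at -0.99, and under normexp fitted to all spots it turned to 0.19. The medians of the 26 log2 ratios were -0.10 and -0.09.

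Other interferon-stimulated genes, 43 of 47 listed being on the array, gave no gene at least 2-fold higher or lower on the LIFR knockout array among 40 compared. Their median log2 ratio was -0.09, with 14 above 0 and 25 below, against 18 above and 10 below among the 28 genes described first and 42.9% above 0 among all genes compared. On the gp130 knockout array the median was 0.01 and 1 of 41 was at least 2-fold lower. This was Cxcl9, a chemokine induced by interferon gamma, with signals of 35.4, 54.4 and 1.95, the last not well above background. It was at least 3.59-fold lower there than on wildtype, taking the lowest signal called above background, 9.66, as the floor, but 1.43-fold lower under normexp. Rtp4, a chaperone of receptors, was named after its values were seen. It gave 369, 218 and 383, 1.91-fold lower on LIFR knockout than on wildtype and 2.02-fold higher on gp130 than on LIFR knockout. Under normexp fitted to all spots these log2 ratios went from -0.93 and 1.02 to 0.08 and 0.04, and without stray light to -0.69 and 0.79.

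Of 16 further antigen presentation genes, none of 14 compared reached 2-fold on the LIFR knockout array (median -0.12, 3 above 0 and 11 below). On the gp130 knockout array 1 of 15 did, with a median of 0.04. This was H2-Eb1, an MHC class II chain, with 6.63, 5.79 and 21.6, detected on the gp130 knockout array alone. Its bound of at least 3.16-fold over wildtype is 2.09-fold with the lowest single spot, 10.5, as the wildtype floor, and 1.16-fold under normexp.

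**Figure D5:**
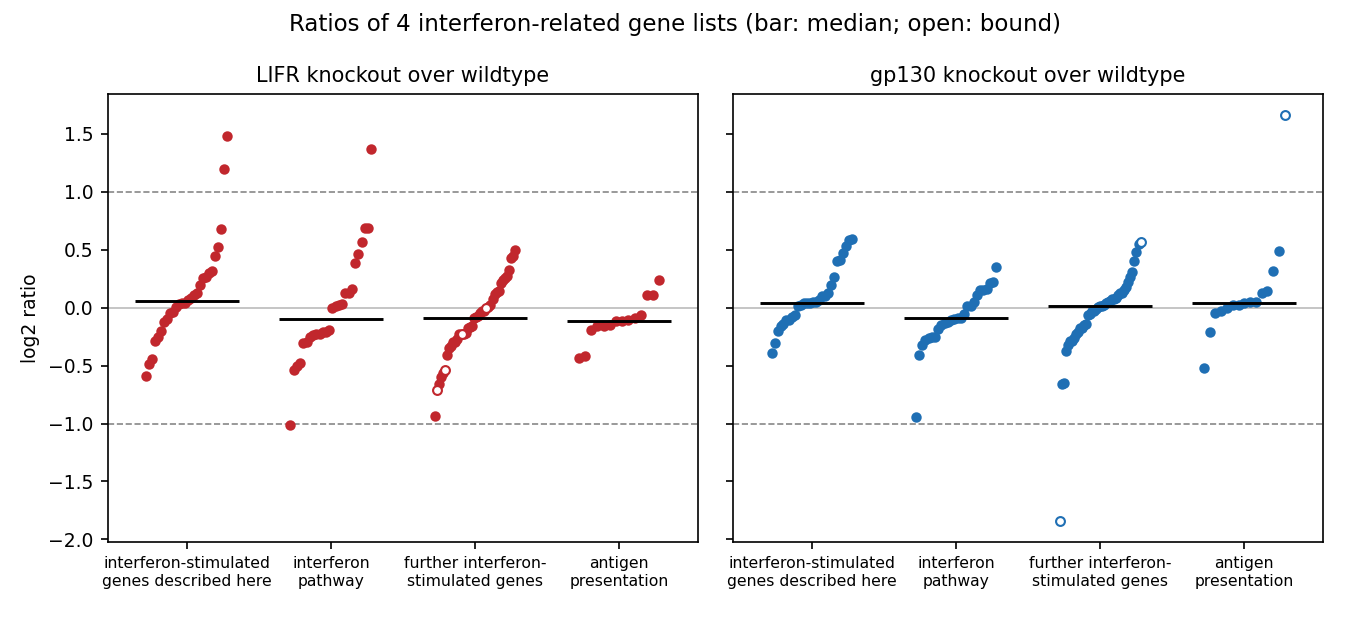
Log2 ratio over wildtype (y axis) of each gene in 4 lists (x axis) for LIFR knockout (left) and gp130 knockout (right); each point is a gene, ordered by ratio within its list, open points are bounds, black bars are medians and dashed lines mark 2-fold. The medians on the left run from -0.12 to 0.06 and those on the right from -0.09 to 0.04.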

How the data were processed

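Gene expression was measured on 3 single-colour Agilent arrays, 1 each for wildtype, LIFR knockout and gp130 knockout cells, grouped by their labels and all in 1 scan, so batch could not be set against genotype. Per the labels, Trizol total RNA was made into Cy3-labelled cRNA. Per the file headers the arrays were built on mm9 and read with Feature Extraction 11.0.1.1, while the submitters' processing notes name version 9.1. The deposited intensity is a processed signal that the software corrected for background and did not normalise between arrays. Its flags, per the file headers another kind of value, mark spots well above background and outliers. The authors' series matrix holds log2 values with a median of 5.38 in each column, which are of the scale of the log2 processed signal (r = 0.995 to 0.998). How the authors normalised them is not given in the sources used here. They served as an alternative.

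Outlier spots were left out, spots of a probe were averaged on the log2 scale, and each array's 75th percentile of non-control spots was subtracted. Accessions were matched without versions to a gene table of GRCm38.p6, which named 27234 of 39429 probes (69.1%). The brightest probe on average stood for its gene. A gene was compared where at least 1 of the 2 arrays was well above background, in at least 0.5 of the spots of its probe, and a dim value was replaced by the lowest such signal (6.94, 16.7 and 9.66) to give a bound, set to 0 where the bright value did not exceed it. Genes at least 2-fold apart were counted. Spot half-widths were taken from probes with at least 3 kept spots. The ratio step was tested on simulated data. The alternatives, 9 planned and 2 added after seeing the data, were background correction, scaling, filter, probe choice and floor. The text names all listed genes, members of the other lists and cell type markers at least 2-fold from wildtype in either knockout, and fixed receptor, kinase and regulator genes. The level of 1 pathway gene is not reported here. The genes and lists were chosen with earlier results of these data known. Python 3.11.15, pandas 2.3.3, R 4.3.3 and limma 3.58.1 were used.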

Additional observations from a re-analysis of the deposited data

How the results depend on the processing

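With 1 array per genotype no replicate could be left out, and No paired analysis was possible because each group has 1 array. Of 924 ratios of interferon-stimulated genes under 11 alternatives, 795 moved by less than the spot half-width over all signals and 129 by more. That half-width was 0.14 to 0.15 log2 units and was used for dim and bright genes alike. Part of the 795 could not move at all. All 28 genes were well above background on all 3 arrays, so the filter and floor alternatives left their ratios as they were. The mean over all probes could move only the 5 genes with more than 1 probe. The 2 genes at least 2-fold apart for LIFR knockout over wildtype became 7 under normexp fitted to all spots (Irf1 lost), 1 under the mean over all probes (Irf1 lost), 1 under normexp fitted without stray light (Rsad2 lost) and 4 at 1.5-fold. For gp130 over LIFR knockout, 1 became 7, 0 (without stray light) and 3 (1.5-fold), and for gp130 knockout over wildtype 0 became 2 at 1.5-fold. The median for LIFR knockout over wildtype, 0.06, was 0.40 under normexp and 0.22 under array-median scaling, which moves each measured ratio by 0.17 and the median of all genes, bounds included, by 0.14. That for gp130 over LIFR knockout, -0.02, was -0.27 and -0.17, where each ratio moves by -0.15 and the median of all genes by -0.12, and 0.01 under normexp without stray light. Ikbke turned from -1.02 to 0.19 under normexp. Of 28 signs, 16 held under every alternative for LIFR knockout over wildtype, 25 for gp130 knockout over wildtype and 10 for gp130 over LIFR knockout, and 4, 1 and 6 turned under another scaling. The only turn of a ratio of at least 0.5 was Ifit1 for gp130 over LIFR knockout. The cause of these moves was not tested.

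Over all genes, the 417 higher and 236 lower for LIFR knockout over wildtype became 3302 and 94 under normexp, 112 and 64 without stray light, 562 and 147 under median scaling and 649 and 1018 with no filter on dim probes. The 240 and 117 for gp130 knockout over wildtype became 10 and 33, 9 and 33, 257 and 115, and 654 and 594, and 78 and 66 where both arrays had to be above background. For LIFR knockout over wildtype that filter gave 253 and 177. The lowest-spot floor left 146 higher for gp130 knockout, and the series matrix gave 161 and 130. For gp130 over LIFR knockout 191 and 303 became 47 and 3247, 36 and 74, 131 and 382, and 969 and 564. Rsad2, Usp18, Tap1, Ifi44 and Ifit3 had the dimmest signals of the genes with a ratio, which limits their ratios.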
